A study of Mus musculus with 12 samples.

Results

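The genes described here are the aminoacyl-tRNA synthetases, the enzymes that load each amino acid onto its tRNA, together with the scaffold genes of the complex that holds several of them. They were taken by symbol from the 11834 genes of a table that compares lactating mammary glands with and without Btn1a1. A letter pattern for the synthetase symbols found 34 genes, and 6 more were taken by name (Farsa, Farsb, Eprs, Aimp1, Aimp2 and Eef1e1). All 40 were in the table: 20 cytosolic enzyme genes, 17 mitochondrial enzyme genes, whose symbols end in 2, and 3 scaffold genes.

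PolyA RNA was sequenced from the glands of 12 C57BL/6 mice in lactation 1. The 5 wild-type (WT) and 7 Btn1a1-/- (KO) mice gave 1 library each. Lactation day was 10 in 3 WT and 5 KO mice, 9 in WT replicate 2, 11 in WT replicate 3 and KO replicate 4, and 8 in KO replicate 3. Btn1a1 encodes butyrophilin, which sits in the apical membrane of the secretory epithelium and is built into the coat of milk fat globules. Per the labels, WT mice were bred in harems and the mutants from heterozygous pairs, and mice received either of a pair of diets that is not given per mouse, so breeding and genotype cannot be told apart.

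Charging proceeds in the cytosol and, with a second set of mostly separate enzymes, in mitochondria, where only the few proteins of the mitochondrial genome are made. All the mitochondrial enzymes are nevertheless encoded in the nucleus. In the cytosol several enzymes sit in a multisynthetase complex around the scaffold proteins Aimp1, Aimp2 and Eef1e1, while the others act alone or as dimers and tetramers. Lysine and glycine enzymes of both compartments come from a single gene each, Kars and Gars. A lactating gland makes milk protein at a high rate, and several cytosolic synthetase genes are known targets of Atf4, a transcription factor that is made when amino acids run short and binds elements containing the letters TGATGNAA.

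The promoter windows of the cytosolic genes with that element are printed because the element is a shared feature that played no part in choosing the genes. Windows came from RefSeq (GRCm38.p6), span 300 bases (250 before to 50 after the start of the gene), and are read 5′ to 3′ on the strand of the gene. Capitals mark TGATGNAA or, for a match on the opposite strand, TTNCATCA. The Aars2 window, from the mitochondrial alanine enzyme, is shown as one without a match.
Iars (chr13:49681880-49682179, plus strand): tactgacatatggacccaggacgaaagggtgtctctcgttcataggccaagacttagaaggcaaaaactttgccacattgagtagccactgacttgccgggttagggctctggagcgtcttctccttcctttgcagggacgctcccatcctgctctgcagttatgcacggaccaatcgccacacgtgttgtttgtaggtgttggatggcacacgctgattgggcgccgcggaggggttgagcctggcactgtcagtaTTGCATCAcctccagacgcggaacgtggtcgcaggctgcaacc
Aars (chr8:111033592-111033891, plus strand): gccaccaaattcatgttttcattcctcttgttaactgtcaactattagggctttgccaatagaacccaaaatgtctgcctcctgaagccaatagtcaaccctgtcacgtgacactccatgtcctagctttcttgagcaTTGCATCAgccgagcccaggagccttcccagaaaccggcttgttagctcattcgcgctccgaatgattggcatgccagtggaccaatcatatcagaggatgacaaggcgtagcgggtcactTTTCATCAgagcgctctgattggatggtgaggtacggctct
Gars (chr6:55037751-55038050, plus strand): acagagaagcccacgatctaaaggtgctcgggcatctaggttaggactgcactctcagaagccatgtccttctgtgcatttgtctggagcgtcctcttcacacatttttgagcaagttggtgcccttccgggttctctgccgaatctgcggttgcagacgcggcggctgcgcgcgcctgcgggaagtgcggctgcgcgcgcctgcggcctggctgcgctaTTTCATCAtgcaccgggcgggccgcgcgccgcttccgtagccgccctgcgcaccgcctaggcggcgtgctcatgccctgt
Tars (chr15:11399609-11399908, minus strand): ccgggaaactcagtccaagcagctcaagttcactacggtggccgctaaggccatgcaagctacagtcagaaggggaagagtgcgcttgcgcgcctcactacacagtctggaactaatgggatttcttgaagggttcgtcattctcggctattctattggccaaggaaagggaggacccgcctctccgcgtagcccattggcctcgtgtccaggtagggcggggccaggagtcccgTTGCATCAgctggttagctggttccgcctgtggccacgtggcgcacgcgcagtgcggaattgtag
Yars (chr4:129189653-129189952, plus strand): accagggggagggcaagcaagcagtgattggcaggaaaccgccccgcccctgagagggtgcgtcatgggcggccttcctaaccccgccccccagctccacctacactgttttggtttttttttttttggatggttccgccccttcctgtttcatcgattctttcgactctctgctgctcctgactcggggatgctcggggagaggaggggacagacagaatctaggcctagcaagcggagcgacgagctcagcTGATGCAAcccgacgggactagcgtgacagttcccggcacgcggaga
Aars2 (chr17:45506582-45506881, plus strand): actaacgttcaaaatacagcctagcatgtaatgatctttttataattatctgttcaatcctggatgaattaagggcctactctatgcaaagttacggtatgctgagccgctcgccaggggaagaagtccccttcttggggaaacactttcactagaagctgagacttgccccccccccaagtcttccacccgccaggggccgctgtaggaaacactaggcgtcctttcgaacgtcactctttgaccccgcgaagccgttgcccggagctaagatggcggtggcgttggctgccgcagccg

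A window was found for 13 of the 20 cytosolic genes, and 5 of the 13 (38.5%) held the element. Aars held it at 2 places, 112 bases before and 10 bases after the start. In Gars it lay 30 bases and in Tars 15 bases before the start, and in Iars 8 bases and in Yars 4 bases after it. None of the 14 mitochondrial genes or of the 3 scaffold genes with a window held these letters. Over all 27025 RefSeq genes with a window the share was 4.51%, and over the 9223 genes of the table with a window it was 2.79%. No window was found for Lars, Rars, Cars, Hars, Nars, Vars and Wars among the cytosolic genes. A match is a string of letters and was not shown to be bound here.

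Levels of different genes were compared as log2 CPM per kilobase, where CPM gives the reads of a gene relative to the library total, as normalized by the authors, and the length is that of the longest protein-coding RNA of the gene. The cytosolic genes had a median WT level of 3.58 log2 CPM per kb and the mitochondrial genes 0.64, a difference of 2.94. With coding length in place of RNA length the medians were 3.88 and 1.63. The highest cytosolic levels were those of Nars (5.11 log2 CPM per kb), which charges asparagine, Rars (4.97), which charges arginine, and Qars (4.70), which charges glutamine, and the lowest was that of Wars (1.84), which charges tryptophan. Nars and Rars were closer to each other than their SD between WT libraries (0.19 and 0.20). Lars2, the mitochondrial leucine enzyme, stood apart from its class at 5.22 log2 CPM per kb, above every cytosolic gene on this scale, although the gap to Nars was smaller than its SD of 0.38. The next mitochondrial genes were Rars2 (2.08) and Fars2 (1.74), for arginine and phenylalanine, and the lowest was Pars2 (-1.69), for proline. With coding length Nars (5.83) stood above Lars2 (5.75), and Sars (5.20) above Rars (5.06) and Qars (4.97). Among the mitochondrial genes Mars2 (3.09) and Iars2 (2.56) then stood above Fars2 (2.39) and Rars2 (2.19).

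**Figure D1:**
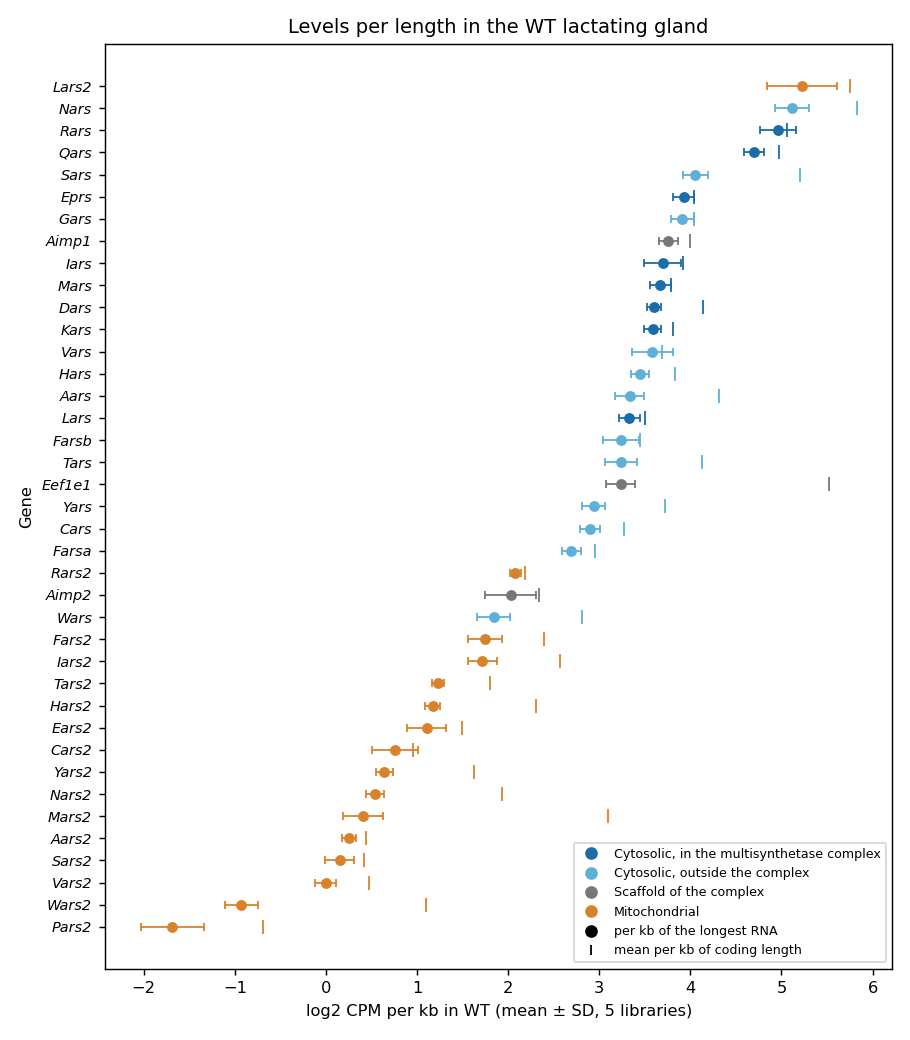
Level of 39 of the 40 genes in the 5 WT libraries, in log2 CPM per kb of the longest RNA (points, mean; bars, SD between libraries) and of the coding length (ticks, mean), coloured by class. The mitochondrial genes fill the lower end with a median of 0.64, and Lars2 at 5.22 is the exception at the top.

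The main comparison asked how the RNA of these genes differed between KO and WT glands. Among the 20 cytosolic enzymes, 4 fell in KO (Aars, Mars, Iars and Rars), between 18.4% (Mars) and 24.9% (Aars) lower on the linear scale. Of the 17 mitochondrial enzymes 2 fell, Aars2 (28.1% lower) and Vars2 (23.4% lower). None of the 40 genes rose, and none of the 3 scaffold genes passed the test. Genes were called at an adjusted p under 0.05 in limma, with Benjamini-Hochberg adjustment over all genes of the table. By that rule 9.36% of all genes were called, 4.52% lower and 4.84% higher in KO, against 6 of the 40 (15%). A further 9 of the 40 were lower and 2 higher at an unadjusted p under 0.05, so that 15 were lower by that rule, which took 14.4% of all genes as lower and 12.2% as higher. Of the 40 genes 30 had a log2 change below 0 (75%), with a median of -0.12, while 55.4% of all genes were below 0, with a median of -0.03. Leaving out 1 library gave 1 called gene of the 40 without WT replicate 1, 2 or 3 (4.72%, 5.44% and 6.13% of all genes). It gave 9 without KO replicate 6 (11.2% of all genes), and 2 or 3 without any other (5.88% to 10.4% of all genes). Without KO replicate 3, 1 of the 3 called genes was higher in KO, Aimp2 (limma adjusted p = 0.046). In bulk tissue, fewer cells of a type and less RNA per cell cannot be told apart.

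**Figure D2:**
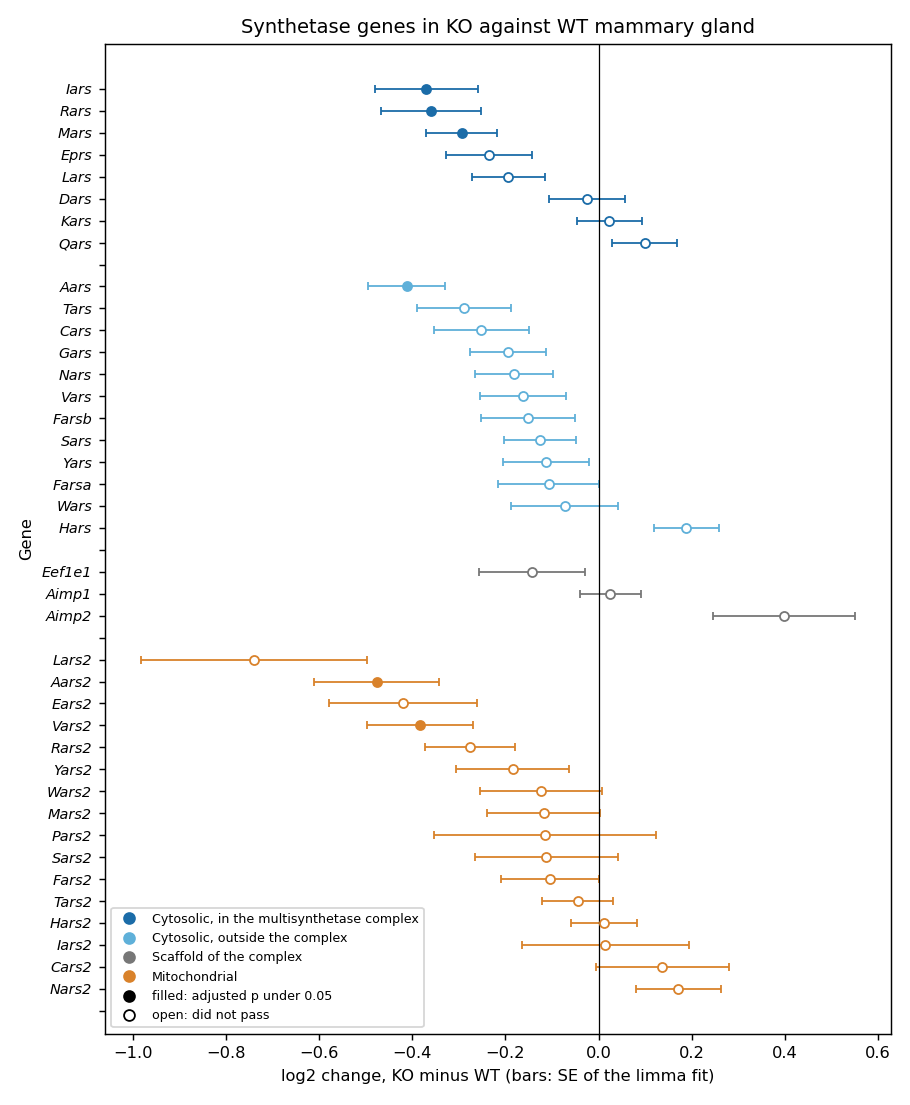
Log2 change of 39 of the 40 genes, KO minus WT, with the SE of the limma fit, from 5 WT and 7 KO libraries. Filled points passed an adjusted p under 0.05: 4 cytosolic and 2 mitochondrial enzymes, all below 0. Lars2 has the lowest change (-0.74) with the widest bar, and Aimp2 the highest (0.40).

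The targeted gene followed its labels. Btn1a1 was at 11.07 ± 0.09 log2 CPM in WT (SD, n = 5) and 5.63 ± 0.30 in KO (SD, n = 7), a log2 change of -5.43 (limma adjusted p = 5.2e-13). The libraries differed in more than Btn1a1. Skeletal muscle markers were uneven in both groups: their mean level relative to WT ran from -1.61 to 1.06 log2 in WT libraries and from -1.17 to 2.80 in KO libraries, 3 of 7 of which lay above every WT library, and 0 of 14 measured markers were called. Of 13 macrophage markers 4 were higher in KO (30.8%, against 4.84% of all genes). So were 6 of 10 basal and myoepithelial (60%) and 3 of 10 luminal epithelial markers (30%), Krt19 by 1.88. The basal markers Krt5 (0.32), Oxtr (0.29), Trp63 (-0.06) and Myh11 (-0.18) did not pass. The mean level of the luminal markers was above every WT library in 7 of 7 KO libraries, and that of the macrophage and of the basal markers in 6 of 7. The luminal markers did not move as one: their median change was 0.15, and the 3 called were Krt19, Krt8 (0.42) and Epcam (0.30). Cldn3 (0.49), Lalba (0.19), Krt18 (0.12), Csn3 (-0.13) and Elf5 (-0.25) did not pass. Of 10 adipocyte markers 1 was higher (Lep, 0.95), which is 10% against 4.84% of all genes. Of 9 endothelial markers 1 was lower (Kdr, -0.57), which is 11.1% against 4.52%. The milk protein genes Csn2 and Wap topped the markers at 17.27 and 16.54 log2 CPM in both groups, where quantile normalization gives equal ranks equal values, and 10 of 11 lymphocyte markers were not among the genes of the table. The part of these markers in the synthetase values was not tested. Only the muscle level was used as a covariate, as given with the results. Its mean was 1.07 log2 in KO relative to WT, so that covariate can also take up part of the genotype difference.

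Among the 8 enzymes of the multisynthetase complex, 3 fell in KO (37.5%, against 4.52% of all genes): Iars, Mars and Rars. All 3 are of structural class I, but so are Lars and Qars of the complex, which did not pass. The median log2 change of the 8 was -0.21, with 6 of 8 below 0. Mars, which charges methionine, including the initiator tRNA with which every cytosolic protein begins, was at 5.37, 5.30, 5.21, 5.07 and 5.24 log2 CPM in WT replicates 1 to 5. In KO it ranged from 4.68 through a median of 4.99 to 5.09 log2 CPM. The groups overlapped in 1 KO library, as 6 of 7 KO libraries lay below the lowest WT library. The log2 change was -0.29 (SE 0.08, limma adjusted p = 0.027), and the call ended without WT replicate 1, 2, 3 or 5 (adjusted p from 0.051 to 0.080).

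Iars charges isoleucine. In WT its values were 6.05, 6.03, 5.85, 5.64 and 5.63 log2 CPM, and in KO they ran from 5.21 through 5.42 to 5.81. WT replicates 4 and 5 were low in their group, and 5 of 7 KO libraries lay below them. Its log2 change was -0.37 (SE 0.11, limma adjusted p = 0.047). A processed pseudogene, Gm4849, matches the Iars RNA at 96.0% identity over 1656 bases, so reads may be shared between them.

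Rars charges arginine, and its WT values were 6.33, 6.03, 6.08, 5.97 and 5.79 log2 CPM. KO values ran from 5.41 through 5.68 to 6.03, and 6 of 7 KO libraries lay below the lowest WT library, with KO replicate 6 as the exception. The log2 change was -0.36 (SE 0.11, limma adjusted p = 0.048). The calls of Iars and Rars sat at the threshold: with the statistics in the authors' deposited table their adjusted p was 0.051 and 0.052, and the calls also ended with lactation day as a covariate (0.054 and 0.055). With day 10 libraries the log2 change was -0.22 for Iars (limma adjusted p = 0.35) and -0.26 for Rars (limma adjusted p = 0.27). With the muscle marker level as a covariate it was -0.25 (limma adjusted p = 0.21) and -0.21 (limma adjusted p = 0.20). Of the 12 fits with 1 library left out, 8 did not call Iars and 10 did not call Rars.

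The other 5 enzymes of the complex did not pass. Eprs, a fused enzyme for glutamate and proline, had a log2 change of -0.23 (SE 0.09, limma adjusted p = 0.12), and Lars, for leucine, -0.19 (SE 0.08, limma adjusted p = 0.13). The change was -0.03 for Dars (aspartate), 0.02 for Kars (lysine) and 0.10 for Qars (glutamine). Qars, among the most abundant of the class, was at 6.35, 6.20, 6.19, 6.16 and 6.03 log2 CPM in WT and from 6.13 through 6.30 to 6.43 in KO. All but 1 of the KO libraries lay above the WT mean of Qars, but the groups overlapped broadly.

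Of the 12 cytosolic enzyme genes outside the complex, Aars alone passed (8.33%, against 4.52% of all genes called lower). A change below 0 was seen in 11 of 12 (median -0.16). Aars charges alanine. Its WT values were 6.04, 5.90, 5.95, 5.68 and 5.71 log2 CPM, and its KO values ran from 5.25 through 5.43 to 5.59. Every KO library was below every WT library, a pattern that 2.74% of all genes showed with KO below WT. The log2 change was -0.41 (SE 0.08, limma adjusted p = 0.0089), and of the alternatives run only 1 ended the call, the restriction to day 10 libraries (log2 change -0.32, limma adjusted p = 0.12). The annotated exons of Aars share 1326 bases on the same strand with Exosc6, a gene that the table does not list, so part of its signal may belong to that gene.

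Tars, for threonine, came next with WT values of 5.54, 5.15, 5.25, 5.19 and 5.07 log2 CPM and KO values from 4.73 through 4.97 to 5.28. Its log2 change was -0.29 (SE 0.10, limma adjusted p = 0.085), with 6 of 7 KO libraries below the lowest WT library. Cars, for cysteine, was at 4.75, 4.63, 4.45, 4.53 and 4.57 in WT and from 3.95 through 4.38 to 4.65 in KO (log2 change -0.25, limma adjusted p = 0.13). In both genes KO replicate 6 was the highest KO library and lay within the WT range.

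Nars, the most abundant cytosolic gene per length, was at 6.73, 6.61, 6.71, 6.52 and 6.27 log2 CPM in WT and from 6.25 through 6.40 to 6.51 in KO, with a log2 change of -0.18 (limma adjusted p = 0.19). The remaining genes below 0 were Gars (-0.19), Vars (-0.16), Farsb (-0.15), Sars (-0.13), Yars (-0.11), Farsa (-0.11) and Wars (-0.07). Farsa and Farsb encode the paired subunits of a single phenylalanine enzyme, and their changes lay within each other's SE. Hars, for histidine, had a change above 0, at 0.19 (SE 0.07, limma adjusted p = 0.10), with all 7 KO libraries above the WT mean. Its exons overlap 195 bases of Hars2 on the opposite strand.

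By structural class, 3 of 9 class I cytosolic genes fell (33.3%) and 1 of 10 class II genes did (10%), against 4.52% of all genes. Eprs belongs to both classes. Medians were -0.19 for class I and -0.14 for class II, and the difference was not tested. The 5 cytosolic genes whose printed window holds TGATGNAA had log2 changes from -0.41 to -0.11 (median -0.29, 2 called: Iars and Aars). The 8 with a window and no match ran from -0.29 to 0.10 (median -0.12, 1 called: Mars). These ranges overlap, and the 7 genes without a window, Rars among them, belong to neither set.

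**Figure D3:**
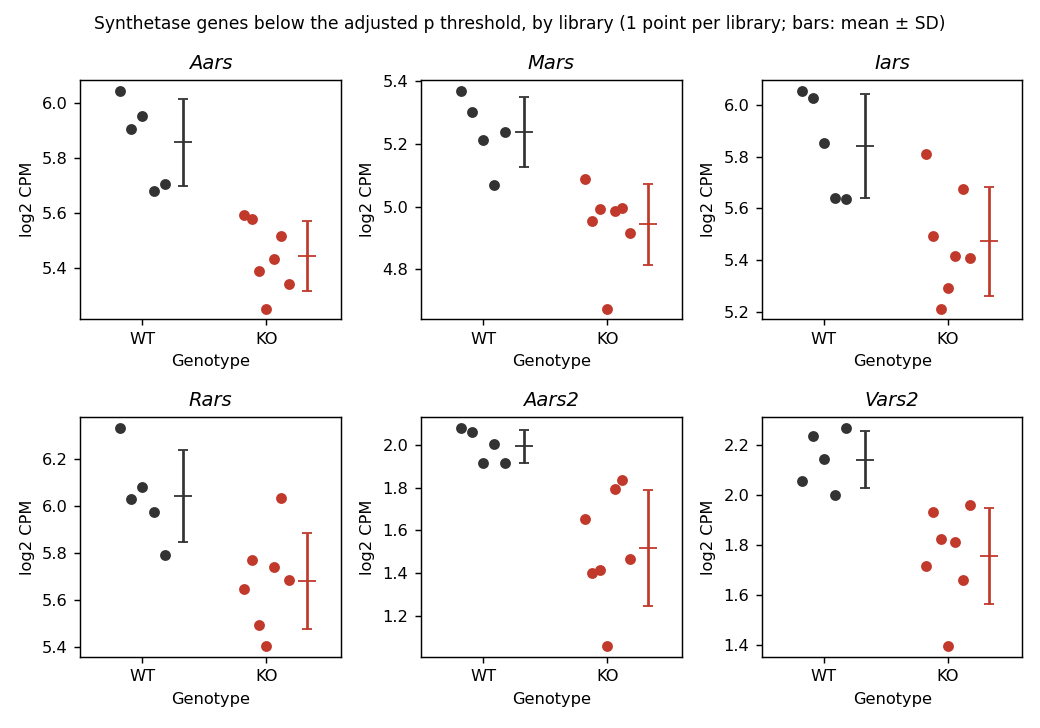
Log2 CPM of the 6 called genes in each WT (black) and KO (red) library, with mean ± SD beside the points. Vertical scales differ between panels and do not start at 0. Aars, Aars2 and Vars2 have no overlap between groups, and Mars, Iars and Rars do.

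None of the scaffold genes passed the test. Aimp2 was at 2.22, 2.68, 2.32, 2.27 and 1.89 log2 CPM in WT and from 2.20 through 2.85 to 2.91 in KO. Of 7 KO libraries 6 lay above the WT mean, with a log2 change of 0.40 (SE 0.15, limma adjusted p = 0.11). Within day 10 libraries the change of Aimp2 was 0.66 (limma adjusted p = 0.045), the single call among the 40 in that subset, in which 2.26% of all genes were called. Exons of Aimp2 overlap 487 bases of Eif2ak1 on the opposite strand, and whether the counting used strand is not stated.

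Eef1e1 was at 4.72, 4.37, 4.71, 4.47 and 4.67 log2 CPM in WT and from 4.14 through 4.34 to 4.82 in KO, a log2 change of -0.14 (limma adjusted p = 0.45). Aimp1 was at 4.06, 3.85, 3.81, 3.91 and 4.00 in WT and from 3.88 through 3.96 to 4.03 in KO, a change of 0.03 (limma adjusted p = 0.84). In both genes the groups overlapped. Eef1e1, Fars2 and Iars lie on chromosome 13 with Btn1a1, at 15.2, 12.7 and 26.2 Mb from it (GENCODE M21, GRCm38); a part of linkage to the altered locus in their values was not tested.

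Of the mitochondrial enzymes, Aars2 and Vars2 fell, and in both every KO library was below every WT library. Aars2, for alanine, was at 2.08, 2.06, 1.92, 2.00 and 1.91 log2 CPM in WT and from 1.06 through 1.47 to 1.84 in KO. The log2 change was -0.48 (SE 0.13, limma adjusted p = 0.039), and KO libraries were spread wider (SD 0.27, n = 7) than WT libraries (SD 0.08, n = 5). Vars2, for valine, was at 2.06, 2.24, 2.14, 2.00 and 2.27 in WT and from 1.40 through 1.81 to 1.96 in KO. Its log2 change was -0.38 (SE 0.11, limma adjusted p = 0.047). Both are genes of low level, and the call of Aars2 ended in 9 and that of Vars2 in 11 of the 12 fits that leave out 1 library.

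The mitochondrial median was -0.11, with 12 of 17 below 0. Ears2, for glutamate, was at 1.96, 2.51, 2.06, 2.07 and 2.09 log2 CPM in WT and from 1.32 through 1.71 to 2.17 in KO (log2 change -0.42, SE 0.16, limma adjusted p = 0.11). Rars2, for arginine, was at 2.98, 2.89, 3.04, 2.96 and 3.04 in WT and from 2.45 through 2.73 to 2.90 in KO (log2 change -0.28, SE 0.10, limma adjusted p = 0.085). In Rars2 6 of 7 KO libraries lay below the lowest WT library, and in Ears2 5 of 7 did.

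Fars2 was the third of its class in level per kb of RNA. It was at 2.63, 2.87, 2.79, 3.12 and 2.74 log2 CPM in WT and from 2.49 through 2.72 to 2.93 in KO (log2 change -0.10). The changes of the others below 0 were -0.18 for Yars2, -0.12 for Wars2, -0.12 for Mars2, -0.11 for Pars2, -0.11 for Sars2 and -0.04 for Tars2. Above 0 were Nars2 (0.17), Cars2 (0.14), Iars2 (0.01) and Hars2 (0.01). None of these 11 passed the test, and the SE of Pars2, the least abundant, was 0.24.

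Lars2 had the largest change of the class and the largest spread. In WT its values were 6.75, 6.89, 7.18, 7.42 and 7.68 log2 CPM, and in KO they ran from 5.62 through 6.53 to 7.08. All 7 KO libraries were below the WT mean and 4 of them below every WT library. The log2 change was -0.74 (SE 0.24, limma adjusted p = 0.076), which did not pass.

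The spread of Lars2 within each genotype went with that of a ribosomal RNA entry of the table, Rn18s-rs5, which was named after its values were seen. In WT, Rn18s-rs5 was at 8.73, 8.73, 8.89, 9.21 and 9.36 log2 CPM, in the order in which Lars2 increased. In KO the library of lowest Lars2, replicate 4, was also lowest in Rn18s-rs5 (8.99), and the 3 KO libraries of highest Lars2 were the 3 highest in Rn18s-rs5 (10.08 to 10.19). Over all 12 libraries, with each genotype centred on its mean, r was 0.956, the highest of 11831 genes compared with Lars2. The entry AY036118 came next with r of 0.952, and like Rn18s-rs5 it had a higher mean in KO (8.29 log2 CPM) than in WT (7.38). Sema7a, Rnf138 and Zfp593, which are not ribosomal RNA, followed closely with r of 0.943, 0.940 and 0.921. Within the 7 KO libraries Pearson's r was 0.957 (exact permutation p = 0.0006) and Spearman's rho 0.964 (exact permutation p = 0.0028), and r was 0.949 without the 2 libraries farthest from the median. These p-values are unadjusted, and since Rn18s-rs5 was picked as the most alike they support nothing.

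Between genotypes the same 2 entries had differences of opposite sign, neither of which passed the test. Rn18s-rs5 was 0.67 log2 higher in KO (SE 0.22, limma adjusted p = 0.065) while Lars2 was 0.74 lower. Where the groups met in Rn18s-rs5, KO replicate 1 (9.26) had 6.09 log2 CPM of Lars2, and WT replicates 4 and 5 (9.21 and 9.36) had 7.42 and 7.68. With the Rn18s-rs5 level as a covariate, an alternative added after seeing the data, the log2 change of Lars2 was -1.45 (SE 0.11, limma adjusted p = 1.6e-05). Because the covariate was picked as the gene that best follows Lars2 within genotype, the smaller SE and the p follow from that choice and are no test of Lars2. In that fit 13.1% of all genes were called, and Vars2, Mars2 and Aars were the other members called. The part of ribosomal RNA in the Lars2 reads was not tested.

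**Figure D4:**
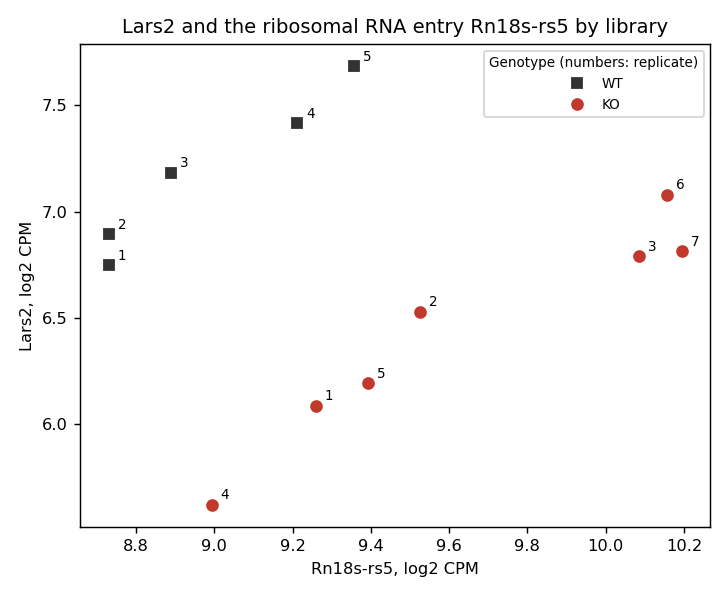
Level of Lars2 against that of the ribosomal RNA entry Rn18s-rs5 in each library, both in log2 CPM; squares are WT, circles KO, and numbers are replicates. Each genotype forms a rising series, and the KO series lies to the right of and below the WT series, with KO replicate 1 at 6.09 where WT replicates 4 and 5 are at 7.42 and 7.68.

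Summed over the genes, cytosolic synthetase RNA amounted to 850 ± 61.8 CPM in WT (SD, n = 5) and 751 ± 49.6 CPM in KO (SD, n = 7), 88.4% of WT, with 5 of 7 KO libraries below every WT library. The mitochondrial sum was 248 ± 42.2 CPM in WT and 185 ± 33.6 CPM in KO, 74.4% of WT. Lars2 carried most of that gap, as the sum without it was 98.7 CPM in WT and 93.2 CPM in KO (94.4%). The lowest cytosolic sum was in KO replicate 4 (685 CPM), which also had the highest muscle marker level (2.80), and the highest was in WT replicate 1 (931 CPM), which had the lowest (-1.61). With the muscle marker level as a covariate, Aars was the single gene of the 40 still called (log2 change -0.33, limma adjusted p = 0.047), the median change of the 40 was -0.06, and 2.62% of all genes were called. Without KO replicate 4, 3 of the 40 were called (7.57% of all genes), with a median of -0.09.

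Cytosolic and mitochondrial enzymes were then compared amino acid by amino acid, over 13 amino acids with 1 gene for each compartment. The cytosolic change was the lower one in 7 pairs and the higher one in 6. Both changes were below 0 in 9 pairs, both above in 1 (histidine), and of opposite sign in 3. The difference of the changes, cytosolic minus mitochondrial, ran from -0.39 (Cars and Cars2) to 0.55 (Lars and Lars2) with a median of -0.01. Alanine was the only amino acid whose enzymes were called in both compartments (-0.41 for Aars, -0.48 for Aars2).

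For valine, the mitochondrial enzyme was called and the cytosolic was not (-0.38 and -0.16), while for isoleucine it was the reverse (0.01 and -0.37). In no pair did the WT and KO libraries separate in the difference of the 2 genes. They came closest for asparagine, where the excess of Nars over Nars2 was 4.12 ± 0.13 log2 in WT and 3.77 ± 0.14 in KO (SD, n = 5 and 7), with 6 of 7 KO libraries below every WT library. The median change of the cytosolic class was 0.06 lower than that of the mitochondrial class (-0.17 and -0.11). That order turned with day 10 libraries alone (0.03 higher) and with the Rn18s-rs5 covariate (0.06 higher). With 1 library left out, the cytosolic minus mitochondrial difference was -0.0010 at the smallest, when WT replicate 3 was dropped, and -0.15 at the largest, when WT replicate 5 was dropped. The difference between the classes was not tested.

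**Figure D5:**
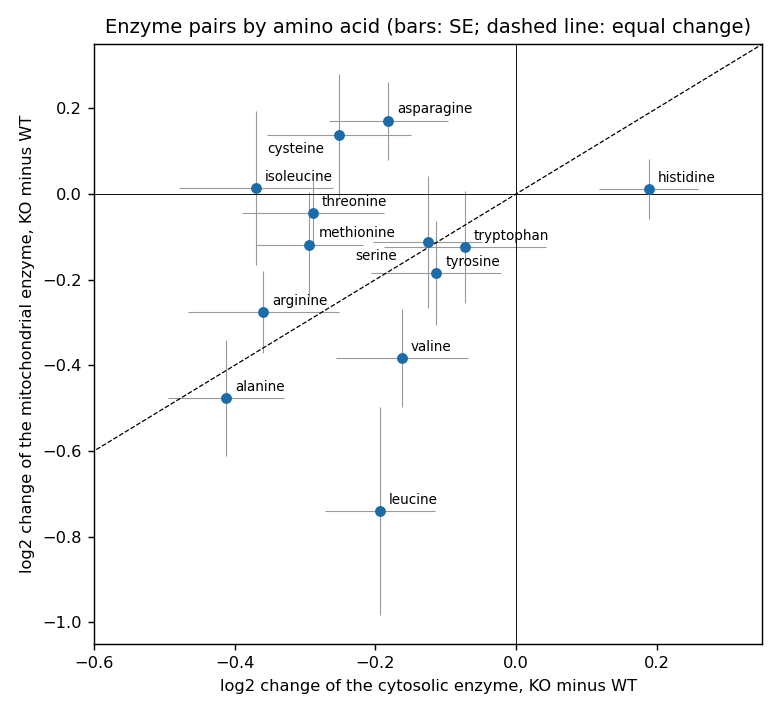
Log2 change (KO minus WT, with SE) of the cytosolic enzyme on the x axis and of the mitochondrial enzyme on the y axis for 13 amino acids with 1 gene per compartment; the axes have different scales, and the dashed line marks equal change. Of the points 9 lie below 0 on both axes, and leucine lies farthest below the line.

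Related genes were taken from lists of known function, chosen with earlier results in view. In a list of Atf4 targets and amino acid response genes, 18 of 38 measured members fell and 1 rose (Atf3, 2.10), with a median of -0.48, against 4.52% and 4.84% of all genes. Phgdh, which opens the serine synthesis pathway, fell by 0.88 (limma adjusted p = 0.0023), Aldh18a1, which starts proline synthesis, by 0.69 (0.0019) and Shmt2, which links serine to mitochondrial folate, by 0.59 (0.0032). Asns, the asparagine synthetase that serves as a standard target of Atf4, fell by 0.41 (SE 0.12, limma adjusted p = 0.037). The mean level of the list in each of the 7 KO libraries was below that of every WT library, lowest in KO replicate 4. The RNA of Atf4 itself was at 6.80 ± 0.11 log2 CPM in WT and 6.78 ± 0.13 in KO (SD, n = 5 and 7; log2 change -0.02, limma adjusted p = 0.91). Within this list TGATGNAA was present in 9 of 34 windows (26.5%).

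Other steps around translation were read from the same fit. Of 13 other charging genes 2 fell (15.4%, against 4.52% of all genes). They were Gatb (-0.45, limma adjusted p = 0.032), a subunit of the mitochondrial amidotransferase that makes glutaminyl-tRNA, and Tarsl2 (-0.33, limma adjusted p = 0.043), a second threonine enzyme. Sepsecs, which completes selenocysteinyl-tRNA, was at -0.22 (limma adjusted p = 0.070) and Ptrhd1 at 0.26. Of 32 genes for tRNA maturation, modification and export 2 fell (6.25%, near the 4.52% of all genes). These were Ctu2 (-0.44) and Ctu1 (-0.64), the partners of the enzyme that adds sulfur to the wobble uridine of some tRNAs. Rpp40, of ribonuclease P, and Elp2, of the elongator complex, had changes of -0.68 and -0.25 that did not pass (limma adjusted p = 0.058 and 0.087).

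Of 26 genes listed for cytosolic initiation and elongation, 4 were higher and 3 lower. That is 26.9% called and 11.5% lower, against 9.36% and 4.52% of all genes. Among the 3 lower was Eif4ebp1, which is also counted in the list of Atf4 targets. Eef1g (0.34), a subunit of elongation factor 1, and Eif5a (0.29), which relieves stalled ribosomes, rose, while Eif3c (-0.42) and Eif2b3 (-0.46), subunits of initiation factors, fell. Of 13 mitochondrial translation factors 0 were called in limma, and 2 were lower at an unadjusted p under 0.05, a rule that took 14.4% of all genes as lower. The 4 of smallest adjusted p were Gfm2 (-0.24), Mtrf1 (-0.47), Mtrf1l (-0.24) and Tufm (0.14).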

How the data were processed

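The authors deposited 1 table of 11834 genes. Its library columns hold log2 CPM that had been quantile-normalized: 67.1% of ranks differed by less than 0.01 log2 across the 12 libraries, and each library summed to between 988803 and 988808 CPM. Depth per library therefore cannot be read from it, and no counting interval is given. Beside them stand the authors' own statistics: a log2 fold change, a score (limma's moderated t), and raw and adjusted p-values. The submitters' processing notes name bcl2fastq 2.17, Trimmomatic 0.33, STAR 2.5.2b, RSEM 1.3.0, limma 3.34.5 and the builds mm10 and hg19. Not given in the sources used here are the filter, annotation and strand setting.

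The deposited log2 values were fitted by genotype in limma 3.58.1 (R 4.3.3, eBayes with trend and robust options), with Benjamini-Hochberg adjustment of two-sided p-values across the whole table. SE come from that fit, and SD describe libraries, 1 per mouse. On simulated data with the same 7 and 5 libraries and 11834 genes, changes of 1 log2 were called in 82 of 100 genes and changes of 0.4 log2 in 30 of 100, and 12 of 11634 unchanged genes were called. The simulated noise was independent between genes and no other genes were changed, while 1108 genes were called in the real data. These rates check the fit and need not hold for the real data. Members, lists, tests and alternatives were chosen with earlier results of these data known, so counts of members carry no test of their own. Each WT value and the lowest, median and highest KO value are given for called genes and the 3 largest changes of each class. They are also given for the 3 highest levels per kb of RNA in each compartment. Log2 changes are given for up to 4 genes of smallest adjusted p from each pathway list, with Asns and Atf4 named outside that rule. A planned search of the proteins for synthetase signature letters was not run. Of the mitochondrial genes, 1 is counted in totals and medians but not reported here, nor is its pair. Positions and lengths come from GENCODE M21 (GRCm38), near-identical RNAs from blastn 2.17.0 (at least 95% identity over at least 100 bases), and promoter windows from RefSeq.

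Alternatives were a replicate block, lactation day, day 10 alone, median centring, quantile normalization, mean levels of at least 1 or 3 log2 CPM, plain eBayes, library weights, a muscle marker covariate, an adjusted p under 0.01, the authors' statistics and leaving out each library. The Rn18s-rs5 covariate was added after seeing the data.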

Additional observations from a re-analysis of the deposited data

Results flagged for a closer look

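Within each group, single libraries were sought that lay far from the others by Dixon's ratio at the 95% level, which flags about 1 in 20 groups by chance. Of 80 groups of synthetase values 4 were marked, and of 128 groups in all 7 were. Iars2 was at 3.23 log2 CPM in KO replicate 7, while the next KO library was at 4.23. Mars was at 4.68 in KO replicate 4, next to 4.92. Farsb was at 3.92 in WT replicate 5, next to 4.32, and Ears2 at 2.51 in WT replicate 2, next to 2.09. Outside the family, Ptrhd1 was at 0.80 and Ctu2 at 2.71 in KO replicate 4, next to 1.29 and 3.12. Btn1a1 was at 11.23 in WT replicate 3, and the other 4 WT libraries were at 11.03. Those 4 values were the same, as quantile normalization gives equal ranks equal values. Dixon's ratio was therefore 1 whatever the size of the gap. Without KO replicate 4, Mars had a log2 change of -0.25 and stayed called (limma adjusted p = 0.034).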

How the results depend on the processing

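The 6 called synthetases kept their direction with other libraries, covariates, the block, weights and median centring, but most calls were near the threshold. For Aars, Aars2 and Vars2 the groups did not overlap, so leaving out or weighting libraries could not turn the sign. All 6 were called for their difference in these same libraries, so a kept direction is no support. Plain eBayes, the mean filters and the stricter adjusted p leave the log2 change as it is, and quantile normalization repeats a step already applied, so they say nothing about direction. Over all genes 1108 were called, and the count was 268 with day 10 libraries, 310 with the muscle covariate and 249 at an adjusted p under 0.01. Of the 40 genes 6 were called, all lower, and 1 under each of these 3 settings. That gene was Aars, lower, with the muscle covariate and at an adjusted p under 0.01. With day 10 libraries it was Aimp2, higher, and 0 of the 6 stayed called. For cytosolic enzymes the count of 4 was 0 with day 10 libraries and 2 with plain eBayes, lactation day or the authors' statistics. It was 1 with the muscle covariate, the Rn18s-rs5 covariate or an adjusted p under 0.01. Of all genes 9.36% were called in the main fit, and 7.58%, 10.7% and 9.64% with plain eBayes, lactation day and the authors' statistics. With day 10 libraries, the muscle covariate, the Rn18s-rs5 covariate and the stricter adjusted p the share was 2.26%, 2.62%, 13.1% and 2.1%. For mitochondrial enzymes the count of 2 was 0 with day 10 libraries, the muscle covariate or an adjusted p under 0.01. It was also 0 at a mean of at least 3 log2 CPM, where fewer genes were tested and 13.9% of them were called. Leaving out 1 library gave 559 to 1327 calls over all genes, 1 to 9 of the 40, 1 to 6 cytosolic and 0 to 3 mitochondrial. Without WT replicate 1, 2 or 3 Aars alone was called, and without KO replicate 6 Ears2, Eprs, Lars2 and Tars were called besides and Vars2 was not. The cause was not tested.

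The replicate numbers are not said to pair the mice, and the libraries showed no clear pairing, though 5 pairs cannot exclude one. Same-numbered libraries correlated between -0.17 and 0.21, over 0.1 in 1 of 5 pairs, and 1 of 5 WT libraries correlated best with its own number. With the replicate block 1083 genes were called, 6 of the 40 among them, 5 cytosolic and 1 mitochondrial: Lars2 (-0.94) and Tars (-0.37) were called, and Aars2 and Vars2 were not.

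Genes near 0 changed sign. With day 10 libraries the log2 change was 0.0088 for Dars, -0.038 for Aimp1, 0.035 for Farsa, 0.10 for Wars, -0.025 for Hars2, -0.12 for Iars2, 0.0021 for Tars2 and 0.092 for Atf4. With the Rn18s-rs5 covariate it was 0.10 for Dars, 0.023 for Wars and -0.014 for Hars2. With library weights it was -0.041 for Iars2, with the replicate block -0.0091 for Hars2, and with the muscle covariate 0.029 for Atf4. Leaving out 1 library gave -0.0034 to 0.059 for Aimp1, -0.053 to 0.023 for Atf4, -0.064 to 0.011 for Dars, -0.0046 to 0.043 for Hars2, -0.037 to 0.17 for Iars2, -0.0084 to 0.053 for Kars and -0.22 to 0.014 for Pars2. The cytosolic minus mitochondrial median, -0.058, was 0.029 with day 10 libraries and 0.056 with the Rn18s-rs5 covariate, and leaving out 1 library gave -0.0010 (without WT replicate 3) to -0.15 (without WT replicate 5). The level difference of 2.94 log2 CPM per kb was 2.25 with coding length. Depth is not known, so the precision of low genes such as Pars2 rests on the spread between libraries alone.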
